A study of Mus musculus with 34 samples.

Results

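The collagen and laminin genes were 53 of the 29876 gene entries in the deposited count table, 42 collagens and 11 laminins, taken as every symbol made of Col, a number, a and a number, or of Lama, Lamb or Lamc and a digit. Of these, 34 reached a mean of at least 10 CPM (counts scaled to a library of 1000000) in at least 1 group, 15 lay lower, and Col24a1, Col4a3, Col4a4 and Col6a6 stayed under 1 CPM in every group. Type XXVI collagen and the fifth type VI chain stand in the table under older symbols that the rule does not match.

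RNA was sequenced from mouse cells with a deletion of the chromosomal interval that corresponds to human 16p11.2, with the deletion on one chromosome and the reciprocal duplication on the other, or with neither. The genotypes are given as 129Sv df/+ (deletion), 129Sv df/dp (duplication-deletion) and 129Sv +/+ (control), and every line shares the label C57BL/6N for background strain. Cells were taken as embryonic stem cells (ESCs), as neural progenitors (NPCs) on day 5 and as neurons on day 16; the later stages were grown from ESC lines by way of epiblast stem cells under conditions that direct cells to ventral midbrain fates. ESCs gave 3 deletion, 3 duplication-deletion and 3 control libraries, NPCs 3, 3 and 5, and neurons 2, 2 and 4, 28 in all. Nothing in the labels says whether libraries of a group came from separate cultures or clones, so the p-values speak to the variation among these libraries, which may be technical. For the duplication-deletion NPCs 1 label names the deletion alone; the title and the genotype field give df/dp and were followed.

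Collagens are extracellular proteins whose alpha chains wind into helices of 3 chains. Fibrillar collagens (types I, II, III, V, XI and their relatives) build the fibres of connective tissue, type IV collagen builds the sheet of basement membranes, type VI forms beaded filaments around cells, and the FACIT collagens sit on the surface of fibrils. Laminins are trimers of an alpha, a beta and a gamma chain that start basement membrane assembly and bind integrins and dystroglycan. In the early embryo laminin and type IV collagen line the epiblast, and in brain they are found mainly around vessels and at the pial surface, where type III collagen is also a ligand of the receptor Gpr56.

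The 250 bases upstream of 6 genes are printed because the results turn on these genes: Col1a2 and Col3a1 rose at both steps of differentiation in control cells, Col4a5 and Col4a6 lie head to head and rose together, Lamb1 was called lower in NPCs than in ESCs, and Lama2 rose in neurons. RefSeq windows on GRCm38.p6 matched 39 of the 53 genes. Sequences run 5′ to 3′ on the gene's strand and end at the base before the annotated start; capitals mark matches to short letters searched on both strands. The letters were CCAAT, whose reverse complement reads as ATTGG. They were also GGGCGG, whose reverse complement reads as CCGCCC. Last was TATAAA, whose reverse complement reads as TTTATA. No match overlapped another in the windows shown.
Col1a2 chr6:4505368-4505617, plus strand: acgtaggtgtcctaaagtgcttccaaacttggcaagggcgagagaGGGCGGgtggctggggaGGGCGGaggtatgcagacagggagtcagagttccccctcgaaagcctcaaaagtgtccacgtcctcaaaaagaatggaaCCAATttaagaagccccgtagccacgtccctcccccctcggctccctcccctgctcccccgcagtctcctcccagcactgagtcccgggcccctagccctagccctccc
Col3a1 chr1:45311288-45311537, plus strand: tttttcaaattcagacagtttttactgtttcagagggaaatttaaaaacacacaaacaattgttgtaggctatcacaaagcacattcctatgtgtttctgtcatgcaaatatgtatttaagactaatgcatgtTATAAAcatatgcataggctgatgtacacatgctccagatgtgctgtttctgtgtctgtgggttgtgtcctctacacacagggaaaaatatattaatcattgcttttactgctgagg
Col4a5 chrX:141475169-141475418, plus strand: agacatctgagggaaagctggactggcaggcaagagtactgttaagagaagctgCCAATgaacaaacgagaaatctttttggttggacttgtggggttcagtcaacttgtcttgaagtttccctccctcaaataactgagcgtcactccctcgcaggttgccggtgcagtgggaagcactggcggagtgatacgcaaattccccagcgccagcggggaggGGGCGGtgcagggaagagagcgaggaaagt
Col4a6 chrX:141474077-141474326, minus strand: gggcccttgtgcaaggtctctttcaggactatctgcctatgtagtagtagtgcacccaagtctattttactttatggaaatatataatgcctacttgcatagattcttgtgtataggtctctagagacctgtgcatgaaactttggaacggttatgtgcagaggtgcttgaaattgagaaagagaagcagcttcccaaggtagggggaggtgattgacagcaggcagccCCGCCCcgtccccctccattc
Lamb1 chr12:31265043-31265292, plus strand: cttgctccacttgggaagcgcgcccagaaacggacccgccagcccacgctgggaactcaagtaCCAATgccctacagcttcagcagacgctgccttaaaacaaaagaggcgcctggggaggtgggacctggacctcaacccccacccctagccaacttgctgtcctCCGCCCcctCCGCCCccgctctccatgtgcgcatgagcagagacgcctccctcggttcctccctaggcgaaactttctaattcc
Lama2 chr10:27616943-27617192, minus strand: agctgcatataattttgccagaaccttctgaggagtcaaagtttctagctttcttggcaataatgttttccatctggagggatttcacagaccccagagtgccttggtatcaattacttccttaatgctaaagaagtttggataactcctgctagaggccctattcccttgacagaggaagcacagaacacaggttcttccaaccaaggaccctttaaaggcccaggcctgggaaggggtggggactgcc

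In these windows Col1a2 held GGGCGG starting 205 and 188 bases upstream of its start and CCAAT at 109, while Col3a1 held only TATAAA, at 117. Col4a5 held CCAAT at 196 and GGGCGG at 30, and Col4a6 held CCGCCC at 21. Lamb1 held CCAAT at 187 and CCGCCC at 84 and 75; the Lama2 window held no match to these letters. GGGCGG on either strand stood in 22 of the 39 collagen and laminin windows (56.4%) and in 35.4% of the windows of 27025 genes. CCAAT stood in 14 of 39 (35.9%), against 37.5% of all windows, and TATAAA in 5 of 39 (12.8%), against 14.3%. These are matches of letters and were not tied to any factor.

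Levels below are CPM scaled by the trimmed mean of M values (TMM); they are not divided by transcript length, so they compare groups within a gene and not genes with each other. Mean levels are given ± SD and log2 fold changes ± SE. Libraries held 5578135 to 78814032 counts, and the shallowest were replicate 3 of each ESC genotype and replicate 5 of each NPC genotype (5578135 to 24053962, against at least 35411528 in the other 22). Across 6 genes of the deleted interval (Aldoa, Mapk3, Kctd13, Taok2, Maz and Ppp4c) the ratio of mean CPM to control lay between 0.343 and 0.918 in deletion cells and between 0.708 and 1.16 in duplication-deletion cells, over the 3 stages. Summed markers of ESCs (5 genes) were 801 to 1122 CPM in ESCs and at most 5.24 CPM later, those of neural progenitors (6 genes) 1558 to 2759 CPM in NPCs, and those of neurons (6 genes) 1346 to 2960 CPM in neurons, against 393 to 1523 CPM in NPCs. Some libraries stood apart. In ESC replicate 3, Gata4, a marker of extraembryonic endoderm, was at 12.5, 17.9 and 23.1 CPM in the deletion, duplication-deletion and control libraries, against 2.22 to 3.86 CPM in the other ESC libraries. Other markers on that list of 8 were mixed. In the same order Sox17 was at 4.12, 7.4 and 7.86 CPM, against 0.826 to 3.66 CPM. Sox7 was at 4.3, 4.87 and 4.99 CPM, against 0.583 to 3.64 CPM. Gata6 was at 12.2, 11.3 and 15.4 CPM, against 2.48 to 24.3 CPM. Their sum was 73.9, 88 and 130 CPM, against 19.7 to 80.4 CPM. Nanog, an ESC marker, was at 114, 124 and 117 CPM, against 4.65 to 22.9 CPM. In NPC duplication-deletion replicate 5, Acta2, a smooth muscle actin, was at 4009 CPM. In neuron replicate 4 the 53 genes took 0.509% of the counts in the duplication-deletion library and 0.605% in the control library, against 0.179 to 0.293% in the other 6 neuron libraries. These are shares of raw counts. In them 1 entry, GU332589, took 21.6% and 19.6% in the same order, and 38.8% in control neuron replicate 1. The shares of other genes depend on it, and the library depths above include it.

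**Figure D1:**
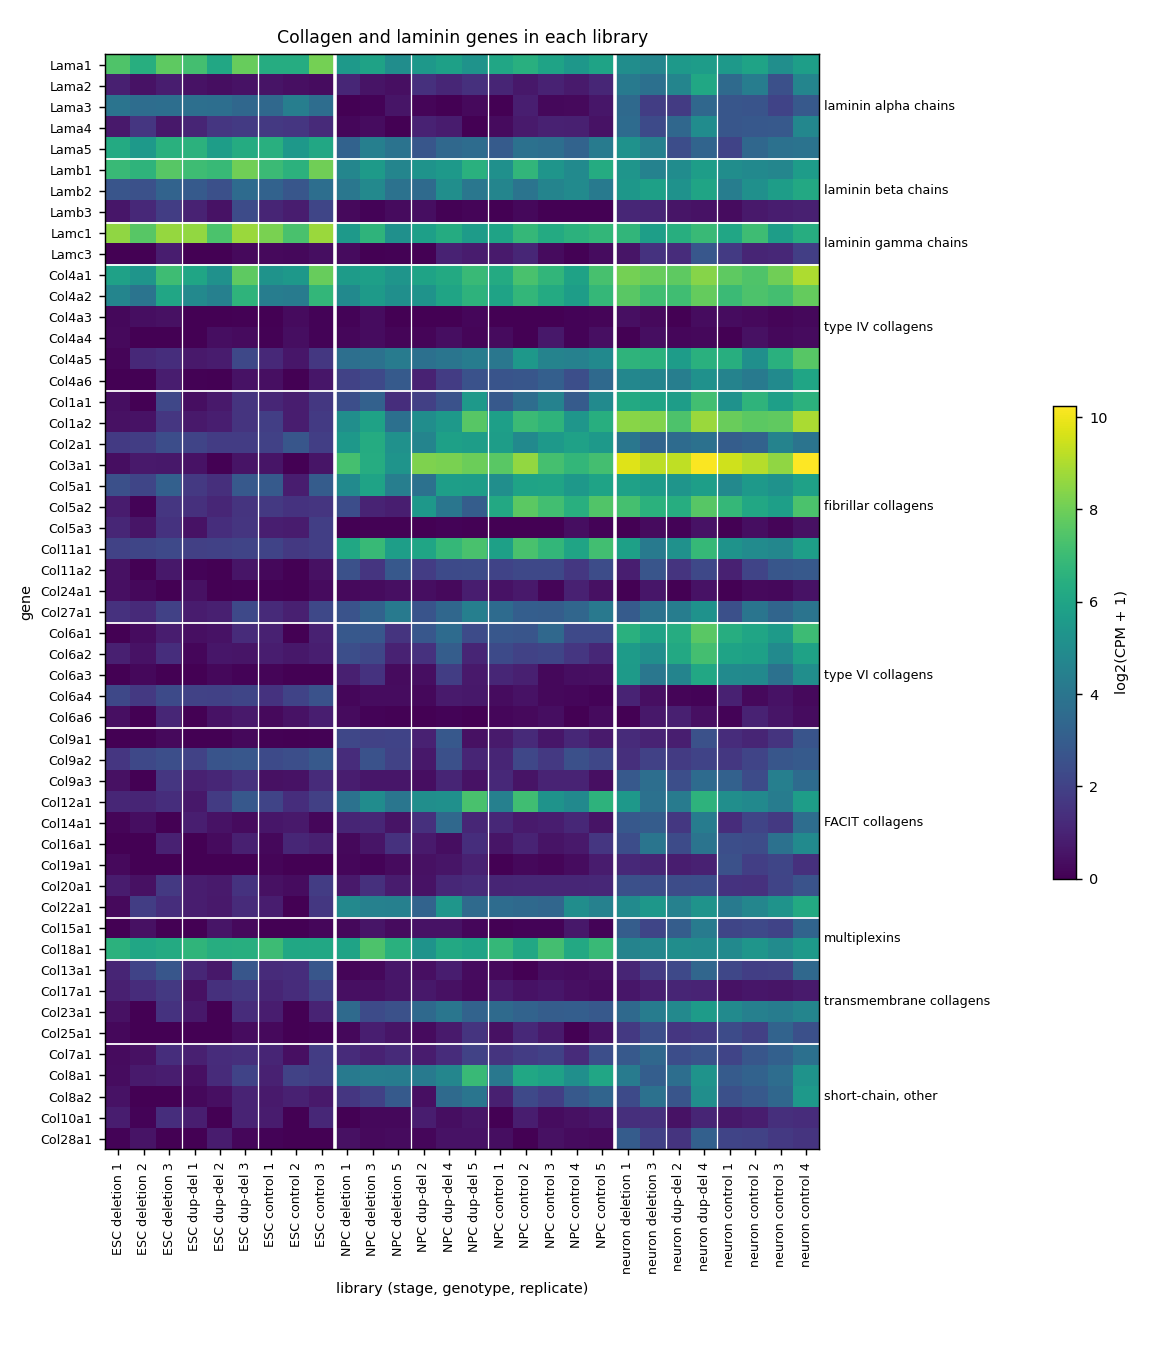
Levels of 52 of the 53 collagen and laminin genes, as log2 of CPM plus 1, in each of 28 libraries (columns, by stage and genotype) with the genes in rows by role. Brighter colours are higher levels: Lama1, Lama5, Lamb1 and Lamc1 (Lamc1 at 157 to 418 CPM) are brightest in ESCs, Col3a1 is near 0 in ESCs and brightest in neurons, and Col6a1, Col6a2 and Col6a3 are brightest in neurons.

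Differentiation changed more of these genes than genotype did. In control cells 33 of 53 (62.3%) passed an adjusted p of 0.05 between NPCs and ESCs, 21 higher and 12 lower, while 41.5% of all genes tested did (21% higher, 20.5% lower). The median log2 fold change was 1.27 for the collagen and laminin genes and 0.01 for all genes. Between neurons and NPCs 29 of 53 (54.7%) passed, 25 higher and 4 lower, against 43.7% of all genes (23.2% higher, 20.5% lower), with medians of 1.5 and 0.10. Adjusted p-values are from edgeR's quasi-likelihood test with Benjamini-Hochberg adjustment over all genes, and fold changes are later over earlier stage.

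Deletion and duplication-deletion cells were fitted on their own libraries. Between NPCs and ESCs 28 of 53 genes passed in deletion cells (52.8%; 18 higher, 10 lower), where 29.9% of all genes passed (16.7% higher, 13.2% lower), and 32 of 52 tested in duplication-deletion cells (61.5%; 23 higher, 9 lower), where 31.8% of all genes passed (17.5% higher, 14.2% lower). The genes called higher in all 3 genotypes numbered 18, which is all 18 called in deletion cells, 18 of 23 in duplication-deletion cells and 18 of 21 in control cells. Those called lower in all 3 numbered 9, of 10, 9 and 12. Between neurons and NPCs 20 genes passed in deletion cells (37.7%; 18 higher, 2 lower), where 19.9% of all genes passed (10.5% higher, 9.39% lower), and 11 in duplication-deletion cells (21.2%; 10 higher, 1 lower), where 15% of all genes passed (8.04% higher, 6.95% lower). The genes called higher in all 3 genotypes were Col15a1, Col6a1, Col6a2, Col6a3, Col9a3, Lama2, Lama3 and Lama4, 8 of 18, 10 and 25. Col2a1 alone was called lower in all 3. At neither step is the same overlap given for all genes, so it cannot be read as particular to collagens and laminins. Single libraries moved the neuron counts: the deletion count of 20 was 10 without neuron deletion replicate 1 and 12 without NPC deletion replicate 3, and the duplication-deletion count of 11 was 4 without neuron replicate 4, where the lone remaining library is assumed to vary like the other groups.

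The calls were refitted with each library left out in turn. The shares of all genes called in such refits are not given here. Whether these genes moved more than all genes cannot be read from them. Between NPCs and ESCs 20 of 28 deletion calls, 20 of 32 duplication-deletion calls and 26 of 33 control calls passed in every such refit. The others had adjusted p-values of up to 0.139 in deletion cells (Col5a3, Col6a3, Col11a2, Col13a1, Col23a1, Col27a1, Lamb2 and Lamb3), up to 0.202 in duplication-deletion cells (Col1a1, Col4a6, Col5a3, Col6a2, Col6a3, Col8a2, Col9a1, Col11a2, Col27a1, Lamb1, Lamb2 and Lamb3) and up to 0.33 in control cells (Col5a3, Col8a2, Col17a1, Lama1, Lama4, Lamb1 and Lamb2). Between neurons and NPCs 7 of 20, 4 of 11 and 22 of 29 calls passed in every refit. The others reached up to 0.171 in deletion cells (Col2a1, Col4a2, Col4a5, Col6a3, Col7a1, Col9a3, Col14a1, Col15a1, Col18a1, Col28a1, Lama3, Lama4 and Lamb2), 0.217 in duplication-deletion cells (Col2a1, Col5a2, Col6a3, Col9a3, Col13a1, Col15a1 and Lama4) and 0.387 in control cells (Col4a1, Col7a1, Col8a1, Col8a2, Col14a1, Col23a1 and Lamb2).

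**Figure D2:**
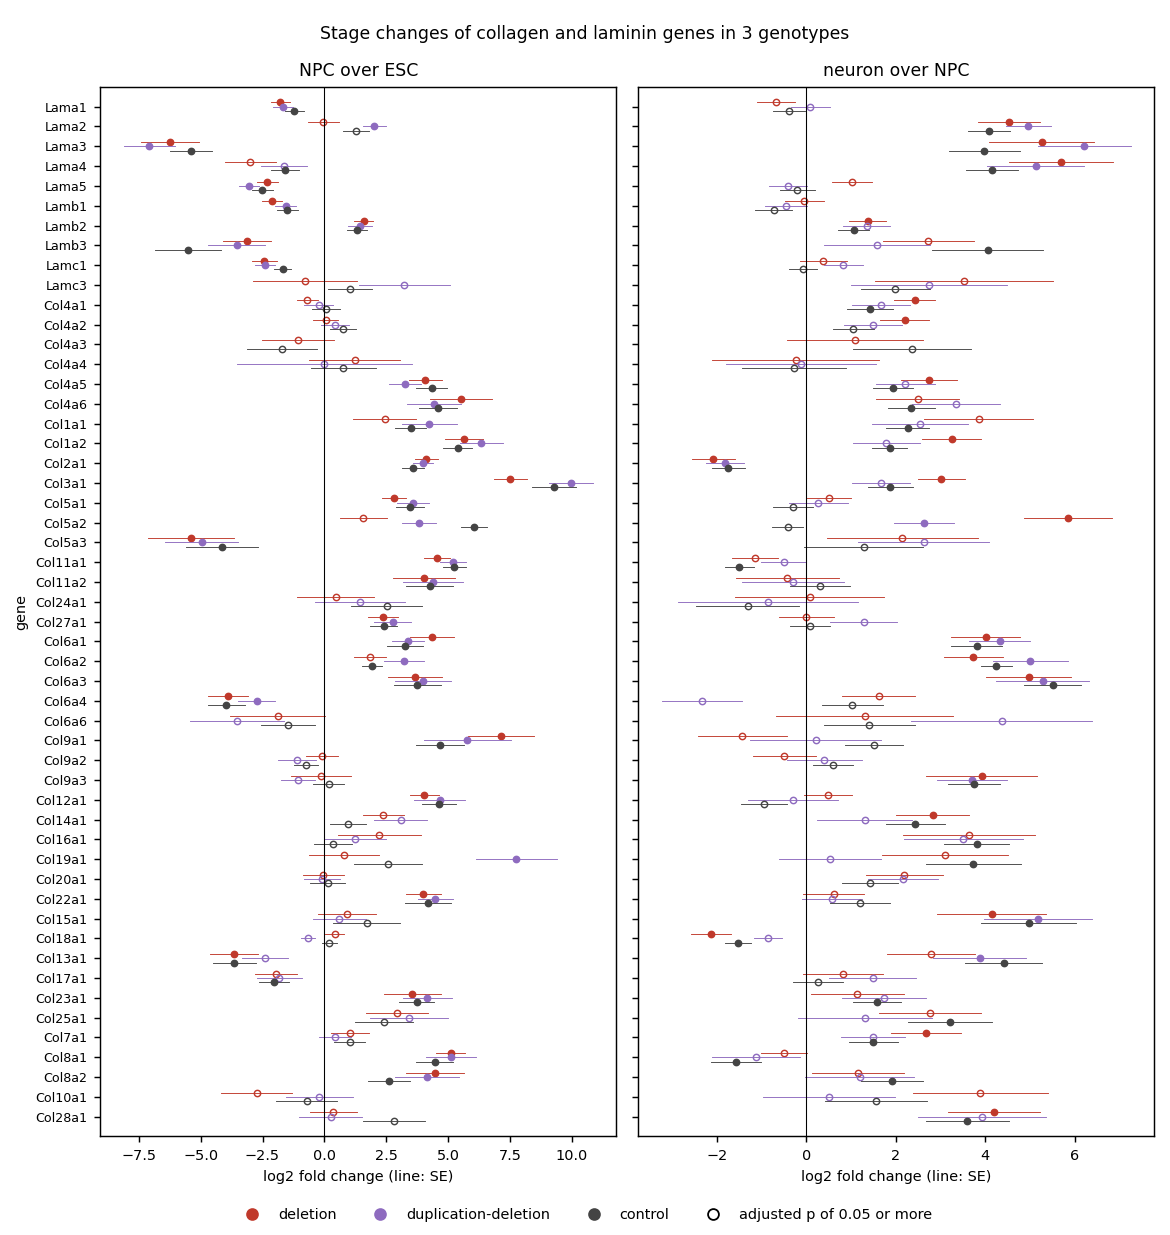
Log2 fold change (points) with its standard error (lines) of each of 52 genes in deletion, duplication-deletion and control cells, NPC over ESC on the left and neuron over NPC on the right; filled points passed an adjusted p of 0.05. Of all 53 genes in control cells, 21 were higher and 12 lower in NPCs than in ESCs, and 25 were higher and 4 lower in neurons than in NPCs.

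Lama1, Lamb1 and Lamc1 together form the laminin of the early embryonic basement membrane. All 3 were called lower in NPCs than in ESCs in every genotype; the Lamc1 calls passed with each library left out, while the control calls of Lama1 and Lamb1 rested on ESC replicate 3. Lamc1 was at 372, 193 and 398 CPM in deletion ESCs, 389, 163 and 415 CPM in duplication-deletion ESCs and 289, 157 and 418 CPM in control ESCs. In NPCs it was at 44.2, 102 and 34.5 CPM in deletion cells, 54.2, 77.4 and 47.7 CPM in duplication-deletion cells and 60.4, 111, 75.3, 94.5 and 108 CPM in control cells. No NPC library reached the lowest ESC library, 157 CPM, and the log2 fold changes were -2.42 ± 0.500 (adjusted p = 0.00479) in deletion cells, -2.40 ± 0.407 (0.00239) in duplication-deletion cells and -1.69 ± 0.341 (0.00129) in control cells. Neurons held 105 and 52 CPM in deletion cells, 86.2 and 124 CPM in duplication-deletion cells and 65.4, 133, 50.9 and 82.7 CPM in control cells, a range that overlaps that of NPCs, and no genotype passed between neurons and NPCs.

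Lama1 averaged 44.8 ± 13.5 CPM in deletion NPCs against 155 ± 62.4 CPM in deletion ESCs (SD, n = 3 each), 45.4 ± 8.99 CPM in duplication-deletion NPCs against 149 ± 80.4 CPM in their ESCs (n = 3 each), and 63.1 ± 16.2 CPM (n = 5) in control NPCs against 145 ± 111 CPM (n = 3) in control ESCs. The log2 fold changes were -1.79 ± 0.384 (adjusted p = 0.00571) in deletion cells, -1.69 ± 0.406 (0.0126) in duplication-deletion cells and -1.21 ± 0.372 (0.0181) in control cells. The control libraries of NPCs and ESCs overlapped: the highest NPC library was at 86.7 CPM, while 2 of 3 ESC libraries stood at 80.4 and 80.6 CPM and replicate 3 at 273 CPM. ESC replicate 3 was also the highest of its genotype in deletion (206 CPM) and duplication-deletion cells (231 CPM). Gata4, Sox7 and Sox17, though not Gata6, were high in the same libraries, as was the ESC marker Nanog. The part of extraembryonic endoderm cells in the level was not tested. Without control ESC replicate 3 the control change was -0.37 ± 0.28 with an adjusted p of 0.33. Without all the shallow libraries the changes were -1.34 (adjusted p = 0.0488) in deletion, -1.10 (0.0593) in duplication-deletion and -0.34 (0.409) in control cells.

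Lamb1 stands in the table beside a second entry, Lamb1-1, at the same start, so reads of the gene may be divided between the entries and its level is uncertain. It averaged 31.9 ± 12.9 CPM in deletion NPCs against 137 ± 48.2 CPM in deletion ESCs, 57.2 ± 28.5 CPM in duplication-deletion NPCs against 169 ± 76.1 CPM in their ESCs, and 57.2 ± 33.5 CPM in control NPCs against 161 ± 87 CPM in control ESCs. The log2 fold changes were -2.11 ± 0.403 (adjusted p = 0.00316), -1.56 ± 0.425 (0.0214) and -1.5 ± 0.430 (0.0121) in deletion, duplication-deletion and control cells. The sum of both entries gave the same order, 71.6 ± 41.8 CPM in control NPCs against 204 ± 75.3 CPM in control ESCs. The control call was lost without ESC replicate 3 (-0.98, adjusted p = 0.101) and without the shallow libraries (-1.12, adjusted p = 0.077). The duplication-deletion call was lost without ESC replicate 3 (-1.13, adjusted p = 0.0584), without NPC replicate 2 (-1.34, 0.0636) and without NPC replicate 4 (-1.42, 0.0791).

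**Figure D3:**
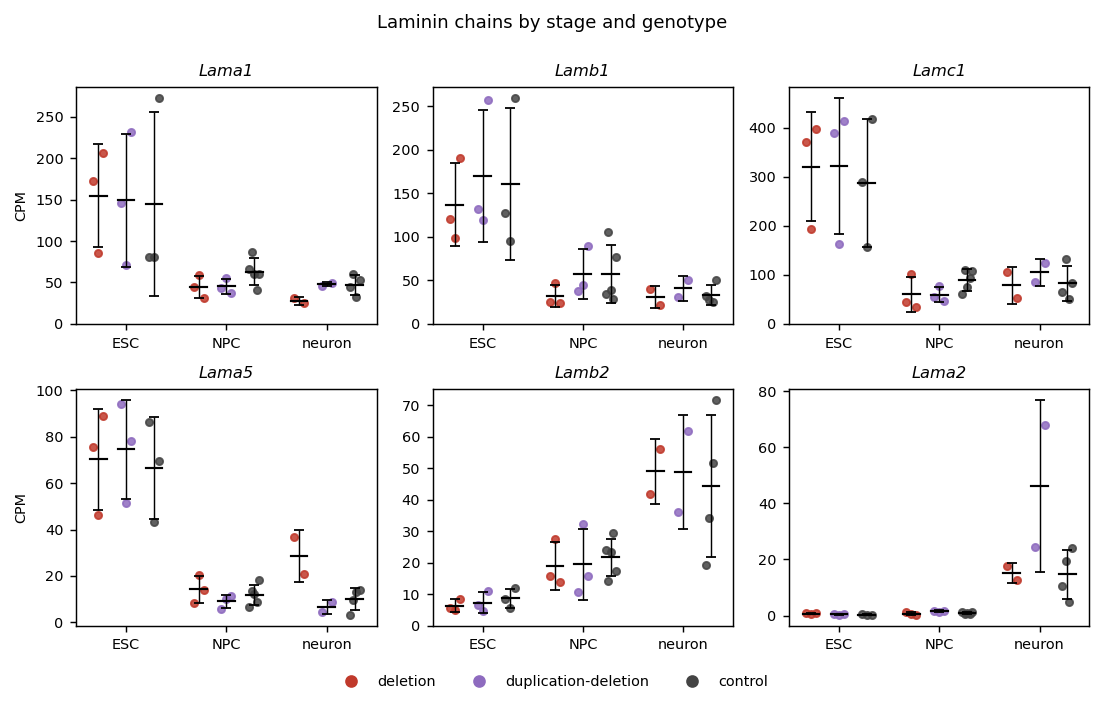
CPM of Lama1, Lamb1, Lamc1, Lama5, Lamb2 and Lama2 in each library (points) with the group mean and SD, by stage and genotype. Lama1, Lamb1, Lamc1 and Lama5 are highest in ESCs, where Lamc1 lies at 157 to 418 CPM, while Lama2 lies under 2 CPM before the neuron stage and at 4.72 to 68 CPM in neurons.

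Lama5, the alpha chain of many mature basement membranes, was higher in every ESC library than in any NPC library. It was at 8.29, 20.2 and 14 CPM in deletion NPCs against 75.6, 46.3 and 88.9 CPM in deletion ESCs, at 5.7, 9.96 and 11.4 CPM in duplication-deletion NPCs against 94, 51.6 and 78.1 CPM in their ESCs, and at 6.75 to 18.2 CPM in control NPCs against 43.2 to 86.6 CPM in control ESCs. The log2 fold changes were -2.31 ± 0.419 (adjusted p = 0.00233), -3.03 ± 0.407 (0.000729) and -2.51 ± 0.421 (0.00033). Lama3 and Lamb3 code for chains of the laminin that anchors epithelia to their basement membrane, and both fell in NPCs of all 3 genotypes. In control cells the log2 fold changes were -5.38 ± 0.855 (adjusted p = 0.000214) for Lama3 and -5.52 ± 1.33 (0.00445) for Lamb3. Lamb3 held 10 counts in control NPC replicate 2 and 0 in the other control NPC libraries, so the size of its fall is uncertain. Lama3 lay at 9.74 to 19.7 CPM in the 9 ESC libraries, at 0 to 0.815 CPM in the 11 NPC libraries and at 2.43 to 10.4 CPM in the 8 neuron libraries, a drop and a return. Its rise in neurons was 5.26 ± 1.17 (adjusted p = 0.012) in deletion cells, 6.22 ± 1.04 (0.00552) in duplication-deletion cells and 3.98 ± 0.793 (0.00113) in control cells. Lama3 held 0, 4 and 13 counts in deletion NPCs and 6, 0 and 4 in duplication-deletion NPCs. The size of its rise in both mutants is therefore uncertain.

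Lamb2, the beta chain of synaptic and kidney basement membranes, went the other way. It averaged 18.9 ± 7.48 CPM in deletion NPCs against 6.34 ± 1.99 CPM in their ESCs, 19.4 ± 11.3 against 7.34 ± 3.24 CPM in duplication-deletion cells, and 21.7 ± 5.92 against 8.66 ± 3.07 CPM in control cells, with log2 fold changes of 1.59 ± 0.385 (adjusted p = 0.0107), 1.44 ± 0.489 (0.0498) and 1.31 ± 0.397 (0.0165). In neurons it reached 48.9 ± 10.3 CPM in deletion, 48.8 ± 18.1 CPM in duplication-deletion and 44.2 ± 22.5 CPM in control cells. The step to neurons passed in deletion (1.37 ± 0.407, adjusted p = 0.0388) and control cells (1.06 ± 0.343, 0.0227), and the value in duplication-deletion cells was 1.35 ± 0.53 (0.117).

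Lama2 and Lama4 rose in neurons. Lama2, the alpha chain of muscle and peripheral nerve basement membranes, was at 0.261 to 0.891 CPM in ESCs and at 0.345 to 1.7 CPM in NPCs. In neurons it was at 17.7 and 12.6 CPM in deletion cells, 24.5 and 68 CPM in duplication-deletion cells and 10.7, 19.4, 4.72 and 24.1 CPM in control cells. Every neuron library stood above every NPC library, and the log2 fold changes were 4.53 ± 0.694 (adjusted p = 0.00214), 4.96 ± 0.505 (0.000741) and 4.08 ± 0.467 (1.25e-05) in deletion, duplication-deletion and control cells. Without neuron replicate 4 the duplication-deletion change of Lama2 was 4.05 ± 0.627 (0.0122). Lama4, an alpha chain known from vessel walls, was at 10.9 and 4 CPM in deletion neurons, 9.63 and 30.8 CPM in duplication-deletion neurons and 5.72, 6.12, 6.28 and 25.6 CPM in control neurons, against at most 0.948 CPM in any NPC library and 0.561 to 2.37 CPM in the ESC libraries. In control cells it was called lower in NPCs than in ESCs (-1.60 ± 0.571, adjusted p = 0.0367), so that it dropped before it rose. Its neuron over NPC log2 fold changes were 5.69 ± 1.16 (adjusted p = 0.00807), 5.13 ± 1.09 (0.015) and 4.15 ± 0.573 (6.34e-05), and replicate 4 held the highest value in both genotypes that have one. Deletion NPCs held 7, 14 and 0 counts of Lama4, so the size of its rise there is uncertain. Without neuron replicate 4 the duplication-deletion change of Lama4 was 4.08 with an adjusted p of 0.132. Summed endothelial markers (7 genes) were at 4.81 to 5.78 CPM in deletion, 28.7 to 54.5 CPM in duplication-deletion and 5.14 to 19.3 CPM in control neurons, with none of the 7 at 0 in every library of a group; their part in Lama4 was not tested. In these bulk samples fewer cells of a type and less RNA per cell cannot be told apart.

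Type IV collagen is the network-forming collagen of basement membranes. Its 6 chains come in head-to-head gene pairs, and on mm9 the files leave 2 bases between Col4a1 and Col4a2 and 1342 bases between Col4a6 and Col4a5. Col4a1 and Col4a2, the chains found in nearly all basement membranes, were already present in ESCs. Col4a1 was at 48.8, 53.9 and 39.3 CPM in deletion NPCs, 61.1, 74.9 and 123 CPM in duplication-deletion NPCs and 76.5, 156, 105, 59.5 and 151 CPM in control NPCs. In neurons it was at 277 and 230 CPM in deletion cells, 206 and 332 CPM in duplication-deletion cells and 206, 171, 263 and 509 CPM in control cells. No neuron library fell within the NPC range, and the neuron over NPC log2 fold change was 2.42 ± 0.47 (adjusted p = 0.00619) in deletion, 1.67 ± 0.644 (0.113) in duplication-deletion and 1.42 ± 0.510 (0.0365) in control cells. The control value was 1.00 ± 0.506 (0.137) without neuron replicate 4. In ESCs replicate 3 was again far above the rest, at 132, 209 and 230 CPM in deletion, duplication-deletion and control cells against 35.3 to 63.3 CPM, and with all libraries the NPC over ESC change passed in no genotype (-0.69 ± 0.42, adjusted p = 0.243, in deletion, -0.23 ± 0.584, 0.794, in duplication-deletion and 0.07 ± 0.556, 0.936, in control cells). Without ESC replicate 3 it was -0.04 ± 0.303 (0.933) in deletion, 0.81 ± 0.408 (0.16) in duplication-deletion and 1.42 ± 0.469 (0.0303) in control cells, where every NPC library stood above the other 2 ESC libraries. Col4a2 moved likewise, with a control change of 0.74 ± 0.518 (0.271) with all libraries and 2.12 ± 0.371 (0.000697) without ESC replicate 3.

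Col4a5 and Col4a6, whose chains form another network in smooth muscle and some epithelial basement membranes, climbed at both steps in control cells. Col4a5 lay at 0.111 to 3.66 CPM in ESCs, 12.3 to 42.9 CPM in NPCs and 33.5 to 190 CPM in neurons. The control log2 fold changes were 4.33 ± 0.619 (adjusted p = 9.14e-05) for NPC over ESC and 1.94 ± 0.450 (0.00323) for neuron over NPC. Col4a6 lay at 0 to 0.748 CPM in ESCs, 0.996 to 10.3 CPM in NPCs and 17.2 to 64.4 CPM in neurons, with control changes of 4.6 ± 0.764 (0.000304) and 2.35 ± 0.529 (0.00269). In duplication-deletion cells the NPC over ESC changes passed as well (3.26 ± 0.660, 0.0057, and 4.44 ± 1.09, 0.0138), while the neuron over NPC values were 2.21 ± 0.660 (0.0521) and 3.34 ± 0.988 (0.0502).

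Fibrillar collagens were the role with the most calls between NPCs and ESCs: 9 of 11 were higher and 1, Col5a3, was lower in control cells, with a median log2 fold change of 3.58. Col3a1, the type III chain of skin and vessel walls, was at 0 to 0.641 CPM in the 9 ESC libraries. In NPCs it was at 150, 79.5 and 39 CPM in deletion cells, 304, 292 and 248 CPM in duplication-deletion cells and 199, 386, 148, 108 and 146 CPM in control cells. In neurons it was at 858 and 594 CPM in deletion cells, 614 and 1161 CPM in duplication-deletion cells and 722, 545, 372 and 1217 CPM in control cells. ESC and NPC libraries did not overlap in any genotype, and the log2 fold changes were 7.51 ± 0.654 (adjusted p = 4.79e-05), 9.95 ± 0.891 (0.00012) and 9.26 ± 0.886 (3.3e-06) in deletion, duplication-deletion and control cells. The neuron over NPC step was 3.02 ± 0.53 (0.00397) in deletion, 1.67 ± 0.650 (0.115) in duplication-deletion and 1.88 ± 0.499 (0.00736) in control cells.

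Col1a2, a chain of type I collagen, the main fibre protein of connective tissue, followed the same course. It was at 32.4, 58.6 and 12.7 CPM in deletion NPCs, 31.2, 44.3 and 189 CPM in duplication-deletion NPCs and 53.6, 127, 100, 40.3 and 84.2 CPM in control NPCs, against at most 2.71 CPM in any ESC library. In neurons it was at 339 and 318 CPM in deletion cells, 168 and 418 CPM in duplication-deletion cells and 242, 201, 212 and 497 CPM in control cells. The control changes were 5.38 ± 0.573 (adjusted p = 7.86e-06) and 1.86 ± 0.398 (0.00188), and the highest NPC library, replicate 5 of the duplication-deletion cells, was the one in which Acta2 stood at 4009 CPM. Its partner Col1a1 gave 3.49 ± 0.627 (0.000558) and 2.27 ± 0.482 (0.00176) in control cells.

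Col2a1 and Col11a1, chains of cartilage fibrils, rose in NPCs and were lower in neurons. Col2a1 averaged 52.2 ± 22.6 CPM in deletion, 43.5 ± 17.4 CPM in duplication-deletion and 45.6 ± 11.0 CPM in control NPCs, with ESC levels of 3.10 ± 1.05, 2.79 ± 0.408 and 3.77 ± 1.66 CPM. In neurons it averaged 12.4 ± 4.54 CPM in deletion, 12.1 ± 1.45 CPM in duplication-deletion and 13.2 ± 7.24 CPM in control cells, and no neuron library overlapped the NPC libraries of its genotype. The neuron over NPC change was -2.08 ± 0.478 (adjusted p = 0.0138) in deletion, -1.82 ± 0.417 (0.0204) in duplication-deletion and -1.75 ± 0.366 (0.00157) in control cells. Without neuron replicate 4 the duplication-deletion value was -1.95 with an adjusted p of 0.117. Col11a1 fell by 1.5 ± 0.325 (0.00206) in control neurons, and its values in deletion and duplication-deletion cells were -1.14 ± 0.513 (0.147) and -0.51 ± 0.500 (0.546). Summed cartilage markers (5 genes) were at most 8.16 CPM in every NPC group and at most 9.99 CPM in every neuron group, with Matn1 at 0 in all control NPC and all mutant neuron libraries.

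Type VI collagen marked the neuron stage. Col6a1, Col6a2 and Col6a3 code for the 3 chains of its standard form and rose in neurons of all 3 genotypes. Col6a1 was at 90.1 and 58.4 CPM in deletion neurons, 79.6 and 198 CPM in duplication-deletion neurons and 83.5, 65, 46.4 and 128 CPM in control neurons. In NPCs it was at 6.05, 5.79 and 1.88 CPM in deletion cells, 5.96, 10.9 and 4.08 CPM in duplication-deletion cells and 5.96, 5.48, 10.1, 3.8 and 3.74 CPM in control cells. The groups did not overlap, and the log2 fold changes were 4.01 ± 0.769 (adjusted p = 0.00607), 4.32 ± 0.672 (0.0041) and 3.81 ± 0.571 (0.000124) in deletion, duplication-deletion and control cells.

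Col6a2 averaged 40.3 ± 11.6 CPM in deletion neurons against 3.02 ± 1.83 CPM in their NPCs, 108 ± 52.1 against 3.34 ± 3.36 CPM in duplication-deletion cells, and 51.2 ± 15.0 against 2.73 ± 1.08 CPM in control cells. Its changes were 3.73 ± 0.657 (adjusted p = 0.00419), 5.01 ± 0.832 (0.00535) and 4.25 ± 0.344 (6.52e-07), and without neuron replicate 4 the duplication-deletion value was 4.42 ± 0.936 (0.0341). Col6a3 went up furthest of the 3 in control cells, 5.51 ± 0.634 (1.3e-05), with 29, 28.5, 13.2 and 32.8 CPM in control neurons and 0.149 to 1.17 CPM in control NPCs. Its duplication-deletion call, 5.29 ± 1.04 (0.0109), was lost without neuron replicate 4 (4.32, adjusted p = 0.0965). Col6a4, an alternative chain, was lower in NPCs than in ESCs (control -3.96 ± 0.757, 0.000894).

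Summed markers of fibroblasts and mesenchyme (Twist1, Twist2, Prrx1, Dcn, Lum, Postn, Pdgfrb and Fap) were higher in NPCs and neurons than in ESCs. They were at 5.23 to 13.3, 5.52 to 9.46 and 4.23 to 13.2 CPM in deletion, duplication-deletion and control ESCs, with Lum and Fap at 0 in every ESC library. In NPCs they were at 169 to 284, 248 to 479 and 132 to 430 CPM, and in neurons at 321 to 629, 552 to 1284 and 177 to 886 CPM. In control cells 7 of the 8 were called higher in NPCs than in ESCs and 3 of 8 higher in neurons than in NPCs. The control ranges of NPCs and neurons overlapped, whereas type VI collagen summed to 159 ± 54.6 CPM in control neurons (n = 4) against 9.49 ± 3.56 CPM in control NPCs (n = 5). Within the list Dcn was at 71 to 555 CPM in control neurons against 3.76 to 11.7 CPM in control NPCs, while Prrx1 was at 6.55 to 21.4 against 17.8 to 67.3 CPM and Twist1 at 6.83 to 21.4 against 15.8 to 50 CPM. Summed markers of pericytes and smooth muscle (Acta2, Tagln, Myh11, Rgs5, Cspg4 and Des) were at 214 to 516, 168 to 5531 and 241 to 2059 CPM in deletion, duplication-deletion and control NPCs and at 11.7 to 77.3 CPM in all neuron libraries. In NPCs nearly all of this sum was Acta2 (130 to 4009 CPM) and Tagln (27.6 to 1518 CPM). Myh11, Rgs5, Cspg4 and Des each stayed at or under 2.57 CPM there. The part of fibroblasts, pericytes or smooth muscle cells in the collagen levels was not tested.

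**Figure D4:**
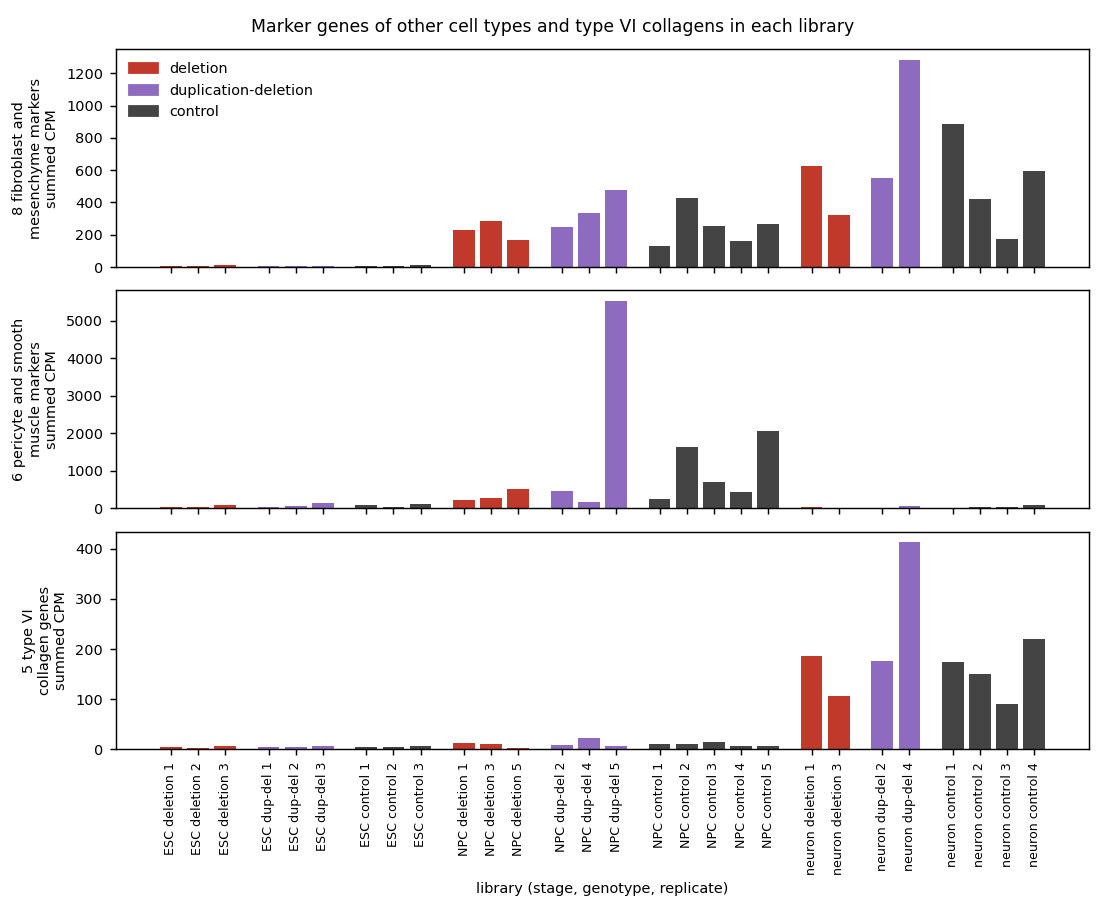
Summed CPM per library of 8 fibroblast and mesenchyme markers, 6 pericyte and smooth muscle markers and the 5 type VI collagen genes (bars from 0, coloured by genotype). Fibroblast markers lie at 4.23 to 13.3 CPM in ESCs and 177 to 1284 CPM in neurons. The pericyte and smooth muscle sum, nearly all Acta2 and Tagln in NPCs, peaks there at up to 5531 CPM. Type VI collagen is seen mainly in neurons.

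Of 9 FACIT collagens, 3 were higher in control NPCs than in ESCs: Col12a1 (4.64 ± 0.694, adjusted p = 0.000132), a coat protein of type I fibrils, Col22a1 (4.17 ± 0.931, 0.0026) and Col9a1, a coat protein of type II fibrils with 3 counts in all control ESCs, so that no fold is given. In control neurons 4 were higher than in NPCs, among them Col9a3 (3.75 ± 0.586, 0.000175) and Col16a1 (3.81 ± 0.723, 0.000786). Of the multiplexins, basement membrane collagens, Col18a1, the source of endostatin, was at 28.1 to 44.1 CPM in control neurons against 69.7 to 144 CPM in control NPCs (-1.53 ± 0.288, 0.000743), and Col15a1 was at 3.22 to 8.85 CPM in control neurons against 0 to 0.571 CPM in control NPCs (4.97 ± 1.06, 0.00182). Col18a1 was also lower in deletion neurons (-2.13 ± 0.448, 0.00942), and its value in duplication-deletion neurons was -0.86 ± 0.319 (0.101).

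Among 4 transmembrane collagens, Col13a1 and Col17a1 were lower (-3.64 ± 0.863, adjusted p = 0.00392, and -2.02 ± 0.605, 0.0155) and Col23a1 higher (3.73 ± 0.716, 0.00091) in control NPCs than in ESCs. Col13a1, Col23a1 and Col25a1 were higher in control neurons than in NPCs, with changes of 4.41 ± 0.854 (0.000911), 1.58 ± 0.529 (0.0263) and 3.22 ± 0.939 (0.0127). The network-forming Col8a1 rose in control NPCs (4.45 ± 0.734, 0.000286) and was lower in neurons (-1.57 ± 0.555, 0.0337).

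Genes that act on collagens and laminins changed in both directions, in a comparison in which 21% of all genes were called higher and 20.5% lower. Of 12 basement membrane partners 6 were higher and 2 lower in control NPCs than in ESCs; Fras1, an extracellular protein of epithelial basement membranes, rose by 4.22 ± 0.564 (adjusted p = 5.25e-05) on the log2 scale, Pxdn, which crosslinks type IV collagen, by 2.72 ± 0.300 (1.06e-05), and Nid2, which links laminin to type IV collagen, fell by 2.27 ± 0.349 (0.00016). Of 28 genes for collagen modification, secretion and crosslinking 10 were higher and 3 lower, with Adamts3, a procollagen peptidase, at 5.43 ± 0.427 (6.82e-07) and Bmp1, another procollagen peptidase, at 3.15 ± 0.425 (5.62e-05). Of 14 receptors 5 were higher and 5 lower, among them the collagen receptors Ddr2 (3.11 ± 0.451, 0.000103) and Ddr1 (2.42 ± 0.387, 0.000226) and the integrin chain Itgb4, a receptor for epithelial laminin, at -4.10 ± 0.806 (0.00109). Of 12 matrix metalloproteinases and inhibitors tested 6 were higher and 2 lower.

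In control neurons relative to NPCs, where 23.2% of all genes were called higher and 20.5% lower, 5 of the 12 basement membrane partners were higher and none was lower, with Smoc1 at 3.73 ± 0.356 (adjusted p = 2.68e-06) and Nid2 at 1.55 ± 0.327 (0.00165). Of the 28 assembly genes 5 were higher and 7 lower; Adamts3 fell by 3.37 ± 0.332 (3.37e-06), and P4hb, a subunit of prolyl hydroxylase, by 1.00 ± 0.195 (0.000982). Of the 14 receptors 3 were higher and 2 lower, with the laminin receptor chains Itga6 at -1.87 ± 0.208 (9.47e-06) and Itgb1 at -1.14 ± 0.254 (0.0025). Of the 12 metalloproteinases and inhibitors 5 were higher and 1 lower.

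Genotype was compared within each stage. None of the 53 genes passed an adjusted p of 0.05 in edgeR in any of the 9 comparisons, in which 0% to 0.039% of all genes passed. In ESCs 43 of the 53 were tested, without the replicate numbers as pairs. The numbers with an unadjusted p under 0.05 were 1 for deletion against control (1.26% of all genes), 0 for duplication-deletion against control (0.31%) and 0 for deletion against duplication-deletion (0.996%). DESeq2 called none of them in ESCs, where it called 0.0281%, 0.014% and 0.0701% of all genes. The gene with the smallest p in deletion ESCs was Col8a1, at 0.26, 0.674 and 0.748 CPM against 0.904, 3.03 and 2.65 CPM in control ESCs (-1.96 ± 0.869, unadjusted p = 0.0479, adjusted p = 1). The groups did not overlap, at levels of 3.03 CPM or less.

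In NPCs 50 of the 53 genes were tested, and 8, 7 and 8 had an unadjusted p under 0.05 for deletion against control (3.56% of all genes), duplication-deletion against control (2.66%) and deletion against duplication-deletion (4.01%). The shares of all genes past the adjusted threshold were 0.00596%, 0.0119% and 0.0238%. DESeq2 called 1 collagen in each of the 3 comparisons, Col5a2 each time, against 0.626%, 0.286% and 0.653% of all genes. In deletion against control NPCs 36 of 50 log2 fold changes were below 0, with a median of -0.43 for these genes and 0.04 for all genes. The deletion NPC libraries are replicates 1, 3 and 5 and the duplication-deletion libraries replicates 2, 4 and 5. These mutant groups share only number 5.

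Col5a2 codes for a chain of type V collagen, which seeds type I fibrils; in people, variants in COL5A2 are a known cause of classical Ehlers-Danlos syndrome. On mm9 it lies at chr1:45431176-45560127, outside the deleted interval, which is on another chromosome. It was at 4.31, 1.05 and 0.804 CPM in deletion NPCs, 43.2, 15.3 and 7.17 CPM in duplication-deletion NPCs and 72.7, 205, 141, 88 and 174 CPM in control NPCs. The 3 groups did not overlap, with the deletion libraries lowest and the control libraries highest. In ESCs it was at 0.706, 0.0674 and 2.06 CPM in deletion, 1.71, 1.17 and 1.93 CPM in duplication-deletion and 2.25, 1.84 and 2 CPM in control cells. In neurons it was at 150 and 91.3 CPM in deletion cells, 81.6 and 191 CPM in duplication-deletion cells and 111, 70.2, 53.8 and 163 CPM in control cells, and these groups overlapped.

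The log2 fold change of Col5a2 in NPCs was -6.00 ± 0.840 for deletion against control (unadjusted p = 1.28e-05, adjusted p = 0.0954), -2.63 ± 0.693 for duplication-deletion against control (adjusted p = 0.834) and -3.37 ± 0.765 for deletion against duplication-deletion (adjusted p = 0.42), all in edgeR. DESeq2 on the same counts gave -6.03 (adjusted p = 5.33e-20), -2.61 (0.00533) and -3.42 (0.000198). In the authors' deposited table, also from DESeq2, the values were -6.025 (adjusted p = 4.885e-29) for the deletion and -2.602 (0.0001868) for the duplication-deletion, in the mutant over control direction. The edgeR value for deletion against control passed without duplication-deletion replicate 2 (-6.02, adjusted p = 0.0261), a library that enters through the shared spread, and lay between 0.0538 and 0.44 without any other single library.

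By stage, Col5a2 rose in control NPCs relative to ESCs by 6.05 ± 0.515 (adjusted p = 1.3e-06) and in duplication-deletion NPCs by 3.82 ± 0.680 (0.00302), and its value in deletion NPCs was 1.57 ± 0.950 (0.244). Between neurons and NPCs it rose in deletion cells by 5.85 ± 0.983 (0.00353) and in duplication-deletion cells by 2.63 ± 0.671 (0.0302), while the control value was -0.42 ± 0.345 (0.35). The difference between genotypes was tested over all 28 libraries. The deletion effect in neurons minus that in NPCs was 6.29 ± 0.965 (adjusted p = 0.0181), the only collagen or laminin gene to pass and the only gene of 19996 (0.005%). With the replicate number as a block within each stage the difference was 6.65 and no longer passed (adjusted p = 0.166). The adjusted p was 0.133 without the shallow libraries, and 0.227, 0.181, 0.151, 0.0523, 0.0731 and 0.0667 without NPC deletion replicate 3, NPC deletion replicate 5, neuron deletion replicate 1, and neuron control replicates 1, 2 and 3; the difference itself stayed between 5.83 and 7.44. The deletion effect in NPCs minus that in ESCs was -4.41 ± 1.08 (adjusted p = 0.528 in edgeR, 0.00116 in DESeq2), and the duplication-deletion differences were 3.08 ± 0.908 (0.962) for neurons minus NPCs and -2.29 ± 0.933 (1) for NPCs minus ESCs. Among the 53 genes 1 and 2 had an unadjusted p under 0.05 for the deletion differences of NPCs minus ESCs (3.22% of all genes; adjusted 0.005%) and of neurons minus NPCs (3.1%), and 3 each for the duplication-deletion differences (2.67% and 5.02%; adjusted 0.005% and 0%). DESeq2 called 1, 1, 0 and 0 of them in the same order, against 0.175%, 0.0341%, 0.167% and 0.156% of all genes.

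Genes beside Col5a2 did not share the size of the difference. Of the 5 genes listed within 1000000 bases on mm9, Gulp1, Col3a1, Wdr75, Slc40a1 and Dnahc7b, the log2 fold changes in deletion against control NPCs lay between -1.13 (Col3a1) and -0.22 (Wdr75), none with an adjusted p under 1. Col3a1 lies 24624 bases away, and its NPC values overlapped between deletion (39 to 150 CPM) and control cells (108 to 386 CPM). Col5a1, which codes for the partner chain of type V collagen, was at 29.2, 61.3 and 19.6 CPM in deletion NPCs, 13.2, 52.8 and 51.7 CPM in duplication-deletion NPCs and 32.6 to 62.9 CPM in control NPCs.

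**Figure D5:**
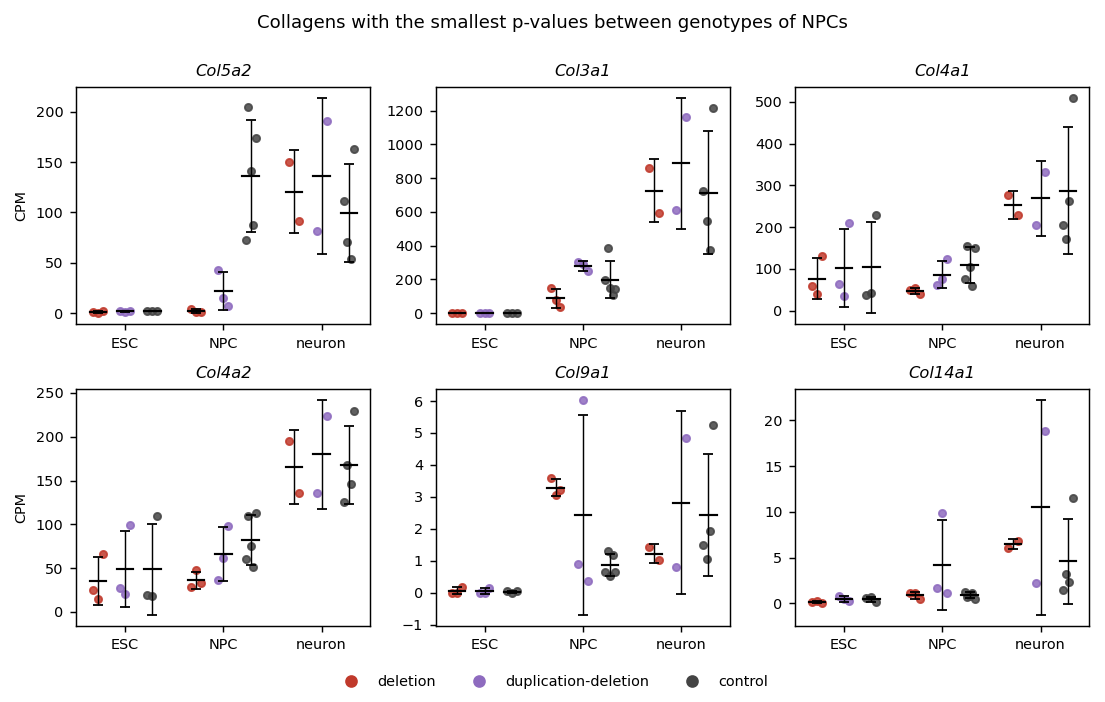
CPM of Col5a2, Col3a1, Col4a1, Col4a2, Col9a1 and Col14a1 in each library (points) with the group mean and SD, by stage and genotype. Col5a2 lies at 0.804 to 4.31 CPM in deletion, 7.17 to 43.2 CPM in duplication-deletion and 72.7 to 205 CPM in control NPCs, while its neuron groups overlap between 53.8 and 191 CPM.

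Other genes in NPCs had smaller differences. Col4a1 was at 39.3 to 53.9 CPM in deletion NPCs against 59.5 to 156 CPM in control NPCs (-1.20 ± 0.342, unadjusted p = 0.00411, adjusted p = 0.683), and Col4a2 at 28.2, 47.3 and 33.2 CPM against 51.1 to 113 CPM (-1.17 ± 0.357, adjusted p = 0.821). Col9a1 was at 3.6, 3.06 and 3.22 CPM in deletion NPCs against 0.531 to 1.3 CPM in control NPCs (1.94, adjusted p = 1). These genes and Col5a2 were the 4 of 50 whose deletion and control libraries did not overlap, and 3.12% of all genes tested did not overlap in this comparison. The authors' deposited table gave Col4a1 an adjusted p of 0.041, Col4a2 0.03657 and Col9a1 0.01683 in this comparison. Markers of pericytes and smooth muscle, cells that make type IV collagen, were at 214 to 516 CPM in deletion NPCs against 241 to 2059 CPM in control NPCs, with a median log2 fold change of -1.61 and all 5 tested markers below 0. Acta2 and Tagln made up nearly all of these sums, and each of the other listed markers stayed at or under 2.57 CPM. Markers of neural crest were at 6.78 to 9.95 CPM in deletion NPCs against 8.43 to 57.5 CPM in control NPCs, with a median of -1.78 and all 5 below 0. Most of the control sum was Ets1 and Tcfap2b (Tfap2b). Sox10, Foxd3 and Tcfap2a (Tfap2a) were at most 1.44 CPM in control NPCs, near the floor. The part of either cell type in the difference was not tested. Col14a1, a FACIT collagen, was at 1.7, 9.91 and 1.12 CPM in duplication-deletion NPCs against 0.463 to 1.21 CPM in control NPCs (2.30 ± 0.655, adjusted p = 0.963), a value that rests on replicate 4.

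The lists around the collagens gave no call in deletion against control NPCs. The median log2 fold change was -0.50 for 12 basement membrane partners, -0.38 for 28 assembly genes, of which 24 were below 0, -0.73 for 14 receptors and -0.19 for the metalloproteinases and inhibitors. The assembly genes with the smallest p were Lox, which crosslinks collagen (-2.29 ± 0.799, adjusted p = 1), and its relative Loxl2 (-1.08 ± 0.375, adjusted p = 1).

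In neurons all 53 genes were tested. The numbers with an unadjusted p under 0.05 were 3 for deletion against control (3.63% of all genes; adjusted threshold 0%), 5 for duplication-deletion against control (7.22%; 0.039%) and 6 for deletion against duplication-deletion (8.85%; 0.0335%), and DESeq2 called none of them, against 0.367%, 0.966% and 1.53% of all genes. Lama5 was at 36.7 and 20.8 CPM in deletion neurons, 4.42 and 8.84 CPM in duplication-deletion neurons and 3.2, 9.8, 13.1 and 14.1 CPM in control neurons. Both deletion libraries lay above all others (1.52 ± 0.542 against control, unadjusted p = 0.0197, adjusted p = 1; 2.14 ± 0.678 against duplication-deletion, adjusted p = 0.484). Lama1 was at 31.5 and 24.8 CPM in deletion neurons against 32.1 to 59.8 CPM in control neurons (-0.74 ± 0.308, adjusted p = 1). Col19a1, a FACIT collagen, was at 1.26 and 1.08 CPM in deletion, 0.759 and 0.914 CPM in duplication-deletion and 1.69 to 4.83 CPM in control neurons, with both mutant groups below the control range (-1.41 ± 0.559, adjusted p = 1, and -1.92 ± 0.576, adjusted p = 0.636). Col23a1 was at 10.4 and 18.5 CPM in deletion neurons against 27 and 47.9 CPM in duplication-deletion neurons (-1.35 ± 0.405, adjusted p = 0.48), and Col6a2 at 48.5 and 32.1 CPM against 71.6 and 145 CPM (-1.40 ± 0.465, adjusted p = 0.508). Each mutant group of neurons holds 2 libraries, replicates 1 and 3 in deletion and replicates 2 and 4 in duplication-deletion cells. Genotype and replicate number therefore cannot be told apart between the mutant groups.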

How the data were processed

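RNA was sequenced as stranded total RNA in paired reads of 75 bases, per the labels' protocols. The authors deposited estimated counts per gene entry and library. The submitters' processing notes name RSEM 1.3.0, STAR 2.6.0c and the build mm9; the annotation and strand setting are not given in the sources used here. The deposited comparison table, from DESeq2 1.22.2 per the same notes, gives each gene's mean normalised signal, log2 fold change with its error, Wald score and p-value. Of 29968 entries, 92 spike-ins were left out; 6392 entries held non-whole values and were rounded. Per-sample columns not used numbered 0, and 6 Hi-C samples were not analysed here.

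Counts were fitted with edgeR 4.0.16 (R 4.3.3, limma 3.58.1; robust quasi-likelihood test, TMM, filterByExpr, two-sided, Benjamini-Hochberg over all genes), with the 3 genotypes of a stage together, the 3 stages of a genotype together, and all 28 libraries for differences of effect. A gene was called at an adjusted p under 0.05. Alternatives were DESeq2 1.42.0, DESeq2 size factors in edgeR, no filter, a replicate block, leaving out each library, and, chosen after seeing the data, leaving out the shallow libraries or neuron replicate 4. Tables and figures were made with Python 3.11.15, pandas 2.3.3 and matplotlib 3.10.9. Counts were also simulated with 100 genes changed by a log2 of 2 and 100 by a log2 of 4, all drawn from genes with a mean log2 CPM above 2. Of those changed by 2, the deletion against control test found 73% in ESCs, 81% in NPCs and 54% in neurons. False calls numbered 8, 17 and 6. Genes of lower level, Col24a1 among them, were not drawn. Col5a2, with a change above 4 in NPCs, was not called in edgeR, so these shares do not measure power in the real data.

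The genes and lists were chosen with earlier results of these data known. Genes named for a comparison were drawn from those called, up to 8 in each direction by smallest p. Where fewer than 3 were called, they were drawn from the 3 with the smallest p. Of the other lists, they were drawn from up to 4 called genes or the 2 with the smallest p. Not every gene that met the rule is reported. Col12a1 and Col8a2 in deletion against control ESCs are among those left out, as are Col6a2 and Lama2 in duplication-deletion against control neurons. The 118 pairs counted further below take in every gene that met the rule. Col5a1, Col1a1, the neighbours of Col5a2, Col9a1 in NPCs and other genes named for their role were chosen after their values were seen. For 1 gene, counted among the 53, no values are reported here. No 2 of 33 replicate pairs held the same counts. In ESCs all 9 same-numbered pairs deviated together (correlations 0.224 to 0.692). The ESC values printed above are still from the fit without pairs. The numbers entered as pairs only in the refit with a replicate block. No collagen or laminin gene was called between ESC genotypes with or without the block. Sequences are from RefSeq tables on GRCm38.p6; positions of genes are mm9, per the deposited table.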

Additional observations from a re-analysis of the deposited data

Results flagged for a closer look

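In control neurons replicate 4 stood apart from the other 3 libraries for 5 genes: Col1a2 at 497 CPM (nearest 242), Col8a1 at 37.2 CPM (nearest 11.5), Col8a2 at 46.1 CPM (nearest 9.59), Col15a1 at 8.85 CPM (nearest 3.86) and Lama4 at 25.6 CPM (nearest 6.28). Replicate 3 of the same group was the lowest for Col6a2, at 28.9 CPM (nearest 55.8). In control NPCs replicate 4 was the highest for Col15a1, at 0.571 CPM (nearest 0.0772). These 7 are of 68 gene and group combinations examined, and chance marks about 5% of such groups. The deletion effect on Col5a2 differed between stages, by 6.29 on the log2 scale for neurons minus NPCs, the only tested difference of effect among the 53 genes to pass; the call was lost with the replicate number as a block, without the shallow libraries and without any 1 of 6 single libraries.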

How the results depend on the processing

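Counts of called collagen and laminin genes stayed within 1.5 times under the other settings except as follows. With DESeq2 in place of edgeR, 1 gene was called in each NPC comparison (deletion against control, duplication-deletion against control, deletion against duplication-deletion) and 1 in the deletion effect of NPCs minus ESCs, against 0 in edgeR, and 19 were called in duplication-deletion neurons against NPCs, where edgeR called 11. That last count was 24 with the replicate number as a block, 19 without the shallow libraries and 4 without neuron replicate 4. The deletion effect of neurons minus NPCs, 1 call, gave 0 with the replicate block and 0 without the shallow libraries. Size factors and the filter moved no count past that bound. For the stage changes, the shares of all genes called under these settings are not given here. Whether these genes moved more than all genes cannot be read from the counts.

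Leaving out each library in turn gave 0 to 1 calls for deletion against control NPCs and for the deletion effect of neurons minus NPCs, and 0 in every other genotype comparison and difference of effect. For NPCs against ESCs it gave 22 to 29 in deletion, 22 to 31 in duplication-deletion and 30 to 34 in control cells; for neurons against NPCs it gave 10 to 23, 4 to 15 and 23 to 34. The reversal was Col2a1 in duplication-deletion against control ESCs, -0.43 with all libraries and from -0.63 to 0.02 with each library left out (0.02 without control replicate 2), in no case called. Of 118 named gene and comparison pairs, 80 of them called, the block left 114 on their side of the threshold and 4 lost a call; without the shallow libraries 103 stayed and 6 lost a call, and without neuron replicate 4 69 stayed and 5 lost one. The causes were not tested.

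Outside ESCs not every same-numbered pair deviated together, and the main fits there did not use the numbers as pairs either. The correlation was above 0.1 in 5 of 7 cases in NPCs, 3 of 4 in neurons, and 4 of 6, 2 of 4 and 3 of 10 across stages in deletion, duplication-deletion and control cells. Depth limits the low genes most: 3 counts or fewer in a group were seen for Col9a1, Col19a1, Col28a1, Col4a3 and Col5a3, for which no stage fold is given.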
